A study of Mus musculus with 20 samples.

Results

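Prostaglandins are made and broken down inside the ovary, and 10 genes of this pathway are described here: Pla2g4a, Ptgs1, Ptgs2, Ptges, Ptgis, Ptgfr, Ptger2, Ptger4, Hpgd and Ptgr1. They were chosen by symbol, and each symbol led to 1 Ensembl gene among the 54838 genes in the count tables, of which 28051 had at least 1 count in a library. The tables hold 20 ovary libraries, 1 per animal, from female mice aged 77 days that are labelled wild type. The Dummerstorf line FL1 was selected over many generations for large litters, and ctrl is the unselected line bred from the same outbred base. Each line gave 5 animals in estrus and 5 in diestrus, staged by vaginal cytology, which makes 4 groups. The study asked whether local changes in the ovary go along with the high ovulation rate of FL1. FL1 and ctrl are 1 line each, so selection and drift between the lines cannot be told apart.

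Arachidonic acid is freed from membrane lipids by phospholipases and is turned by the cyclooxygenases into a common precursor, from which terminal synthases make prostaglandin E2, prostacyclin and the other products. In the ovary, prostaglandin E2 acts on the cumulus and on the wall of the follicle at ovulation. Prostaglandin F2 alpha acts through its receptor on the corpus luteum and drives its regression at the end of the luteal phase in rodents.

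A library held 5991223 to 10352718 counts, with a median of 6957533. Levels are given as CPM, that is counts scaled to a common library total, with TMM factors over the 20 libraries. The reads were taken from the 3' end of transcripts, about 1 per molecule, so CPM was not divided by gene length. Whole ovary was the labelled tissue, and the sums of its markers were well above 0 in every library. The summed CPM was 1287 to 3974 for 8 granulosa genes, 107 to 347 for 5 oocyte genes and 5444 to 35516 for 6 luteal genes. Single markers could be near 0: the granulosa gene Amh had group means of 0.0608 to 0.131 CPM. The 4 oviduct genes summed to at most 4.65 CPM in a library, and Sntn among them was at 0 in all libraries of ctrl in estrus. One library of ctrl in estrus, replicate 5, stood apart: it made up 66.8% of the third principal component, which held 9.73% of the variance. In this whole tissue, fewer cells of a type and less RNA per cell cannot be told apart, which holds for every level given here.

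The 10 genes spanned a wide range of levels. Ptgfr, the receptor of prostaglandin F2 alpha, was the highest in all 4 groups, with group means of 931 to 1860 CPM, and its libraries did not overlap those of the next gene, Ptges. Ptges, the inducible synthase of prostaglandin E2, had means of 76.4 to 139 CPM, and Ptgis, the prostacyclin synthase, 54.6 to 72.5 CPM. These neighbours overlapped in 3 groups and were apart only among the libraries of FL1 in diestrus. Ptgr1, a reductase of prostaglandins and leukotriene B4, had means of 47.0 to 60.1 CPM and overlapped Ptgis in every group. Hpgd, the dehydrogenase that inactivates prostaglandins, was at rank 5 of the 10 by mean in both ctrl groups, at rank 8 in FL1 in estrus and at rank 7 in FL1 in diestrus. Ptger2, Pla2g4a, Ptgs1 and Ptger4 had group means between 4.58 and 31.1 CPM, and Ptgs2 was the lowest in all groups, with means of 0.483 to 1.29 CPM.

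**Figure D1:**
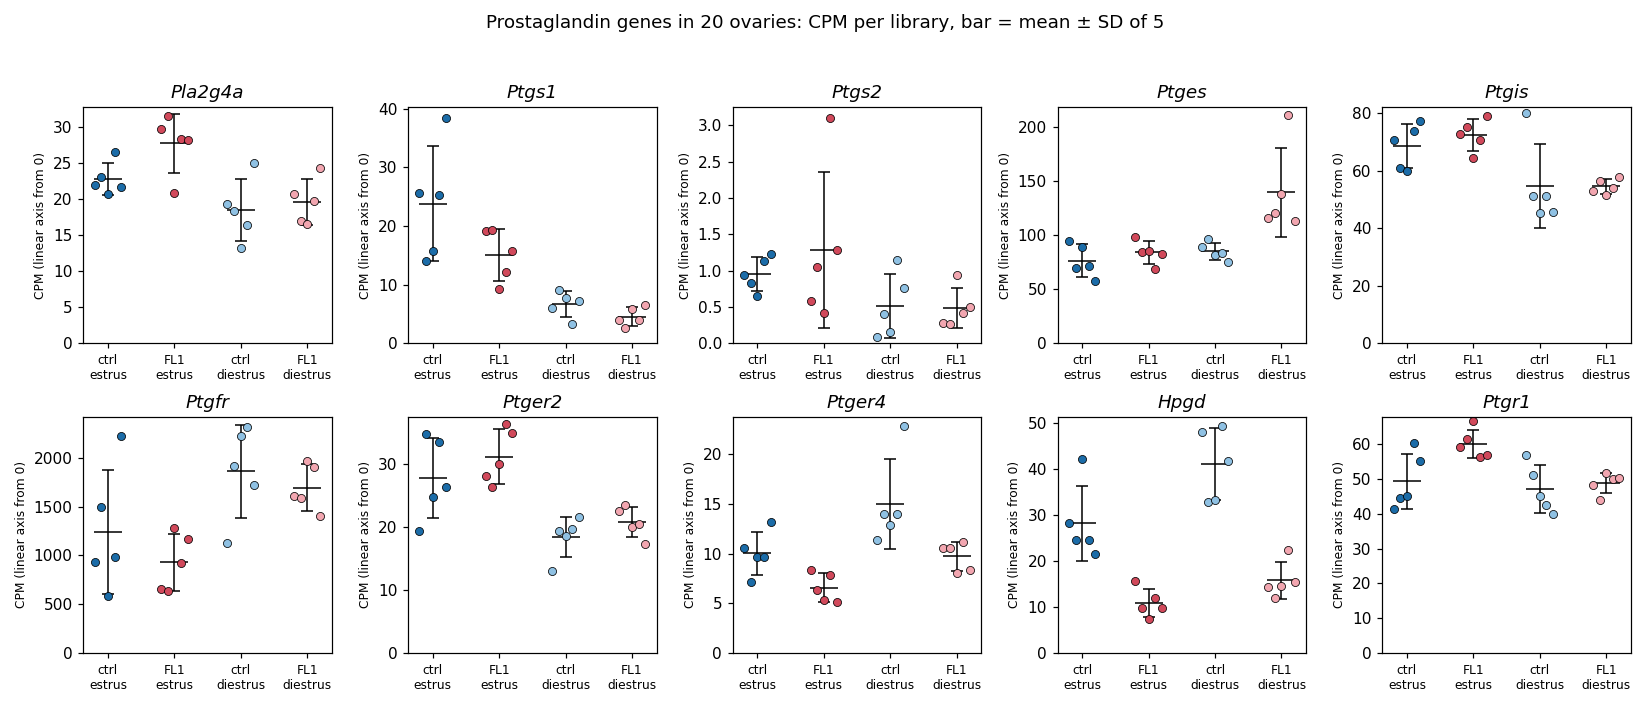
Each panel plots the CPM of 1 gene in the 20 ovaries on a linear axis from 0, with 1 point per library and black bars for the mean ± SD of 5. Hpgd is low in both FL1 groups, Ptgs1 is high in both estrus groups, and Ptges is highest in FL1 in diestrus.

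Between the lines, Hpgd was the weaker expressed gene of FL1 in both stages and Ptges was stronger expressed in FL1 in diestrus. In estrus, 1 of the 9 genes that passed the filter on low counts was called at an adjusted p of at most 0.05 (edgeR), beside 2.33% of all genes tested. In diestrus it was 2 of 9, beside 4.11% of all genes. Between the stages, Ptgs1 rose about as much in both lines. In ctrl it was the 1 gene called of 9, beside 2.85% of all genes. In FL1, 7 of 9 were called, beside 15.9% of all genes. Of these, 5 were higher in estrus and 2 lower, and over all genes the shares were 7.42% higher and 8.49% lower. When the interaction of line and stage was tested over the 20 libraries, 0 of 9 were called, beside 0.0565% of all genes (8 genes), and DESeq2 and limma-voom also called 0. Ptges alone of the 9 had an unadjusted p under 0.05 there, at 0.0147. DESeq2 and limma-voom called the same genes as edgeR among the 9 in all 4 other comparisons. Ptgs2 did not pass the filter in any comparison. Each group entered a line comparison and a stage comparison, so these comparisons share libraries. The median log2FC of the 9 genes was 0.08 in estrus and -0.01 in diestrus for FL1 against ctrl, where the medians of all genes were -0.0052 and -0.0093. For estrus against diestrus it was 0.06 in ctrl and 0.30 in FL1, where all genes had -0.0058 and 0.0071.

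**Figure D2:**
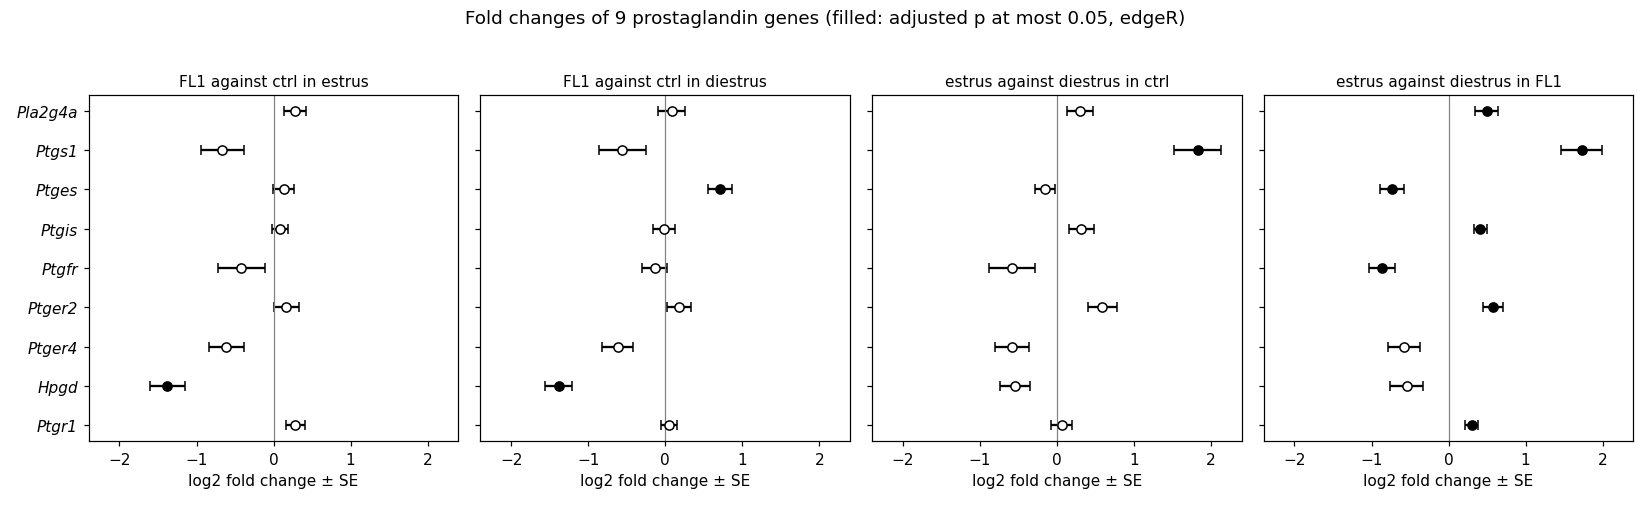
Log2 fold changes (horizontal axis, with standard errors as bars) of the 9 genes that passed the filter, in each of the 4 comparisons, with filled points for an adjusted p of at most 0.05 in edgeR. Hpgd lies at -1.38 in both line comparisons, and Ptgs1 lies at 1.83 in ctrl and 1.73 in FL1 in the stage comparisons.

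The sequence before the start of transcription is shown for the 3 genes with a call between the lines or in both stage comparisons, Hpgd, Ptges and Ptgs1. Each is the 250 bases upstream of the RefSeq start in the reference mouse genome (build GRCm38.p6), read 5' to 3' on the gene's strand. They are not the sequences of FL1 or ctrl, and a gene can have other starts. Hpgd lies at chr8:56294302-56294551 on the plus strand, Ptges at chr2:30903298-30903547 on the minus strand and Ptgs1 at chr2:36230176-36230425 on the plus strand. Capitals mark matches, on either strand, to 5 short motifs picked after the values were seen: the TATA box TATAAA, the GC box GGGCGG, the E-box CACGTG, the CRE core TGACG and the nuclear receptor half-site AGGTCA.
Hpgd: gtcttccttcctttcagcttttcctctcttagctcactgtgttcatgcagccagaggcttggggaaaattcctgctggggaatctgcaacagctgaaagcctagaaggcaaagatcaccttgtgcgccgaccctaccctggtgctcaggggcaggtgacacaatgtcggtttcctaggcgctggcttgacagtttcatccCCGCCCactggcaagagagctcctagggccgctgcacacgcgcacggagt
Ptges: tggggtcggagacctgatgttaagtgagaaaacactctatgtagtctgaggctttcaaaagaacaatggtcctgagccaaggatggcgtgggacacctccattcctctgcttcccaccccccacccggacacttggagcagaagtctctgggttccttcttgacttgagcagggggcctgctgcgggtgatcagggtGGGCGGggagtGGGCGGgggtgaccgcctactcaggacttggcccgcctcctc
Ptgs1: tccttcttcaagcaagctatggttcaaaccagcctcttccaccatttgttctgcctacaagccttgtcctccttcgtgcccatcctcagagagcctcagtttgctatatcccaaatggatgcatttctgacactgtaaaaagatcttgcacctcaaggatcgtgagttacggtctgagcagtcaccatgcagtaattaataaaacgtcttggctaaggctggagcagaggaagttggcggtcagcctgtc
Hpgd held 1 GC box, 50 bases before the start, in the reverse orientation. Ptges held 2, at 53 and 42 bases, and Ptgs1 held none of the 5 motifs. A GC box was in 32.7% of 32851 such windows of mouse genes, TATAAA in 12.4%, CACGTG in 6.02%, TGACG in 17.8% and AGGTCA in 14.0%. Among the other genes, Ptger4 had 4 GC boxes (2 of them overlapping), Ptgr1 had 2, and Ptgfr and Ptgs2 had 1 each. AGGTCA was found in Ptgfr and in 1 of 2 windows of Pla2g4a, TATAAA in the other window of Pla2g4a, and no motif in Ptger2. Ptgis had no window in the table. A match shows only that the letters are there.

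Pla2g4a, the cytosolic phospholipase that frees arachidonic acid, lies on chr1:149829618-149961290 (GRCm38, minus strand). Its mean was 22.7 ± 2.25 CPM (SD, n = 5) for ctrl and 27.7 ± 4.10 for FL1 in estrus, and 18.4 ± 4.29 for ctrl and 19.6 ± 3.17 for FL1 in diestrus. In FL1 the libraries ranged from 20.7 to 31.5 CPM in estrus and from 16.5 to 24.3 in diestrus, so the stages overlapped, and estrus was higher in 24 of 25 pairs of libraries. The log2FC of estrus against diestrus in FL1 was 0.49 (SE 0.15, adjusted p = 0.0288, edgeR). This call was kept in only 3 of 10 fits that left out 1 library, with adjusted p from 0.00774 to 0.0773, and the fits without FL1 estrus replicate 1, 2, 4 or 5 or FL1 diestrus replicate 2, 3 or 4 lost it. In ctrl the same log2FC was 0.30 (SE 0.17, adjusted p = 0.438), and between the lines it was 0.28 in estrus and 0.08 in diestrus, with no call.

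Ptgs1, the constitutive cyclooxygenase (chr2:36230426-36252272, plus strand), was the gene with the largest stage difference of the 9 in both lines. In ctrl in estrus its 5 libraries had 25.6, 14.1, 15.8, 25.3 and 38.5 CPM, and in FL1 in estrus 19.1, 19.3, 9.22, 12.1 and 15.7. In diestrus the values were 6.04, 9.17, 7.66, 3.29 and 7.22 CPM for ctrl and 4.01, 2.62, 5.82, 3.96 and 6.50 for FL1. Estrus lay above diestrus in 25 of 25 pairs of libraries in both lines, while the lines overlapped in both stages. The log2FC of estrus against diestrus was 1.83 in ctrl (SE 0.31, adjusted p = 0.00692, edgeR) and 1.73 in FL1 (SE 0.27, adjusted p = 0.000332). The interaction of -0.10 (SE 0.43, adjusted p = 0.951) did not separate the lines. Ptgs1 was the 1 member of 9 without overlap between the stages in ctrl, where 4.52% of all genes had none. Between the lines its log2FC was -0.66 in estrus (adjusted p = 0.253) and -0.56 in diestrus (adjusted p = 0.379). The library that stood apart, ctrl estrus replicate 5, held the highest value. Without it the stage difference in ctrl was 1.59 (adjusted p = 0.00832), and the line difference in estrus was -0.43 (adjusted p = 0.40), a change of more than 1.5 times in the uncalled value.

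Ptgs2 encodes the inducible cyclooxygenase of the preovulatory follicle (chr1:150100031-150108227, plus strand). It had 1 to 21 counts per library, which leaves a wide counting error. The libraries ranged from 0.652 to 1.23 CPM in ctrl in estrus, from 0.419 to 3.10 in FL1 in estrus, from 0.0943 to 1.15 in ctrl in diestrus and from 0.262 to 0.944 in FL1 in diestrus, and all groups overlapped. In exact two-sided permutation tests of log2 CPM over all splits of 5 against 5, estrus was above diestrus by 0.81 in ctrl (p = 0.0873) and by 0.88 in FL1 (p = 0.0794), with Benjamini-Hochberg adjusted p = 0.175 for both over the 4 comparisons. FL1 was above ctrl by 0.13 in estrus (exact p = 0.786) and by 0.06 in diestrus (exact p = 0.889), with adjusted p = 0.889 for both. The smallest p that this permutation test allows is 0.00794.

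Most cyclooxygenase reads came from Ptgs1. Its share of the reads on both genes was 74.1% to 98.5% over the 20 libraries, with a median of 94.7%. The group medians were 96.0% for ctrl and 94.9% for FL1 in estrus, and 95.7% for ctrl and 90.9% for FL1 in diestrus. The lowest exact 95% limit of any library was 53.7%, so Ptgs1 held the larger share in all 20, at the level of RNA and within counting error. The study recovered ovulated oocytes from the oviducts in estrus and sampled no proestrus ovaries. These shares therefore do not describe the hours before ovulation.

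**Figure D3:**
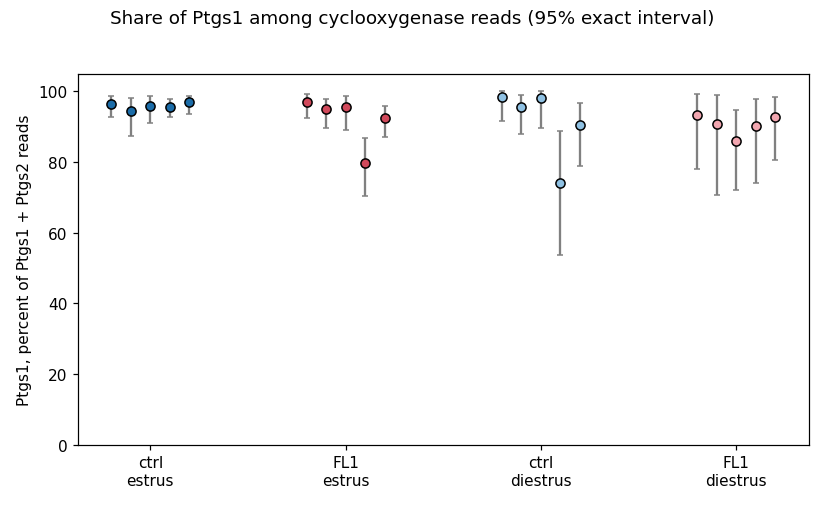
Ptgs1 reads as a percentage of the reads on Ptgs1 and Ptgs2 (vertical axis, from 0) in each of the 20 libraries by group, with exact 95% binomial intervals for counting error. All points lie between 74.1% and 98.5%, and the intervals are widest in diestrus.

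Ptges, the synthase of prostaglandin E2 that is coupled to the cyclooxygenases, lies on chr2:30889471-30929863 (minus strand). In FL1 in diestrus its libraries had 116, 120, 138, 210 and 113 CPM, and in ctrl in diestrus 89.2, 96.2, 81.2, 83.4 and 75.0. In estrus the values were 98.5, 84.3, 85.0, 69.1 and 82.8 CPM for FL1 and 94.7, 69.2, 88.6, 71.6 and 58.0 for ctrl. FL1 in diestrus lay above all 15 other libraries, which overlapped one another. FL1 was 1.64-fold higher than ctrl in diestrus, a log2FC of 0.71 (SE 0.15, adjusted p = 0.0179, edgeR), and higher in 25 of 25 pairs of libraries. The difference in estrus was 0.13 (SE 0.14, adjusted p = 0.708). Within FL1, estrus was below diestrus by a log2FC of -0.73 (SE 0.15, adjusted p = 0.00356), and within ctrl the value was -0.16 (SE 0.13, adjusted p = 0.653). The interaction was -0.58 (SE 0.22, adjusted p = 0.294), so the test did not show that the line difference depends on the stage. Replicate 4 of FL1 in diestrus was far above the others at 210 CPM. In the 10 fits that left out 1 library, the diestrus difference stayed called, at 0.51 to 0.78.

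Ptgis, the prostacyclin synthase (chr2:167191805-167240604, minus strand), was stronger expressed in estrus than in diestrus in FL1. Its libraries had 64.4 to 79.0 CPM in FL1 in estrus and 51.5 to 57.8 in FL1 in diestrus, without overlap. The log2FC was 0.41 (SE 0.08, adjusted p = 0.00351, edgeR). In ctrl the ranges were 59.9 to 77.4 CPM in estrus and 45.2 to 80.2 in diestrus, with a log2FC of 0.32 (SE 0.16, adjusted p = 0.361). Replicate 1 of ctrl in diestrus was the highest library of all at 80.2 CPM, and without it the ctrl difference was 0.50 and called (adjusted p = 0.0376). The lines differed by 0.08 in estrus and -0.01 in diestrus, with no call. The last 1000 bases of Ptgis overlap a gene on the opposite strand, 1110018N20Rik, and the strand setting of the counting is not given in the sources used here.

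Ptgfr lies on chr3:151796502-151837630 (minus strand). In FL1 it had 652, 637, 1281, 920 and 1165 CPM in estrus and 1605, 1585, 1970, 1905 and 1400 CPM in diestrus, so every diestrus library was above every estrus library. The log2FC of estrus against diestrus in FL1 was -0.86 (SE 0.17, adjusted p = 0.00268, edgeR). In ctrl the libraries had 936, 1498, 584, 984 and 2218 CPM in estrus and 1127, 1914, 2225, 2311 and 1721 in diestrus, and the stages overlapped. The log2FC there was -0.58 (SE 0.30, adjusted p = 0.392). The interaction was -0.28 (SE 0.38, adjusted p = 0.819). The highest estrus value in ctrl was that of replicate 5, the library that stood apart, and without it the ctrl difference was -0.90 (adjusted p = 0.0706) and the line difference in estrus went from -0.42 to -0.10 (adjusted p = 0.888). In diestrus the lines differed by -0.14 (SE 0.16, adjusted p = 0.733).

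The correlation of Ptgfr was worked out for 5 of the 6 luteal genes, not for Parm1, and it was uneven. Over the 20 libraries its log2 CPM had a Pearson r of 0.917 with Star, the cholesterol carrier of steroid synthesis, 0.88 with Sfrp4, 0.866 with the prolactin receptor gene Prlr, 0.629 with Akr1c18, which breaks down progesterone, and 0.539 with the LH receptor gene Lhcgr. With the group means removed the r was 0.861, 0.841, 0.814, 0.807 and 0.226 in the same order. Cyp11a1, which makes pregnenolone and stands in the theca list, had r = 0.849 both ways. The genes most like Ptgfr among all genes were Scarb1, a receptor for lipoprotein cholesterol, and Avpi1, both at r = 0.94, and Alg14 at 0.936. These are descriptions over libraries that share line, stage, depth and makeup. The summed level of the 6 luteal genes was 18566 to 26762 CPM in FL1 in diestrus and 10226 to 23209 in FL1 in estrus, and 18938 to 35516 in ctrl in diestrus and 5444 to 25024 in ctrl in estrus. In FL1, 4 of these 6 were lower in estrus (Lhcgr, Star, Prlr and Sfrp4) and Parm1 was higher. Of all genes 8.49% were lower and 7.42% higher there. None was at 0, and their part in the Ptgfr difference was not tested.

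Ptger2 encodes EP2, the receptor through which prostaglandin E2 raises cAMP in cumulus and granulosa cells (chr14:44988195-45003820, plus strand). In FL1 its libraries had 26.4 to 36.3 CPM in estrus and 17.3 to 23.5 in diestrus, without overlap. The log2FC was 0.58 (SE 0.13, adjusted p = 0.00554, edgeR). In ctrl it was nearly the same size, 0.59 (SE 0.19, adjusted p = 0.122), with ranges of 19.3 to 34.8 CPM in estrus and 13.0 to 21.5 in diestrus that overlapped. In 1 fit of all 20 libraries the ctrl difference was called (0.59, adjusted p = 0.0272). The interaction was -0.01 (SE 0.22, adjusted p = 0.992), and the lines differed by 0.17 in estrus and 0.18 in diestrus, with no call. The gene most like Ptger2 over the 20 libraries was Srpx2, at r = 0.929, and at 0.824 with group means removed. The last 1000 bases of Ptger2 overlap Gm17173 on the opposite strand.

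Ptger4 encodes EP4, another cAMP-coupled receptor of prostaglandin E2 (chr15:5206661-5244187, minus strand). FL1 had 10.6, 10.6, 8.03, 11.2 and 8.33 CPM in diestrus and ctrl had 11.4, 14.0, 12.9, 14.0 and 22.9. All FL1 libraries were below all ctrl libraries, but the log2FC of -0.62 (SE 0.20) was not called (adjusted p = 0.116, edgeR). In estrus FL1 libraries had 5.13 to 8.37 CPM and ctrl libraries 7.12 to 13.2, which overlapped, with a log2FC of -0.61 (SE 0.23, adjusted p = 0.194). For estrus against diestrus it was -0.58 in both lines (adjusted p = 0.211 in ctrl and 0.07 in FL1). In FL1, 1 of 10 fits that left out 1 library called it, the fit without estrus replicate 1 (adjusted p = 0.0495, edgeR). The last 1000 bases of Ptger4 overlap Ttc33 on the opposite strand, and the genes that overlap Ptger4 had 6849 counts over the libraries.

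Hpgd oxidizes prostaglandins E2 and F2 alpha to their inactive keto forms, and the gene lies on chr8:56294585-56321043 (plus strand). In estrus its libraries had 28.4, 24.5, 42.3, 24.7 and 21.4 CPM in ctrl and 15.7, 9.75, 7.44, 12.0 and 9.73 in FL1. In diestrus they had 48.2, 33.0, 33.3, 49.3 and 41.8 CPM in ctrl and 14.5, 11.9, 14.6, 22.5 and 15.5 in FL1. FL1 was below ctrl in all 25 pairs of libraries of each stage, and FL1 in diestrus overlapped ctrl in estrus in 1 library. Hpgd was 2.60-fold lower in FL1 in estrus, a log2FC of -1.38 (SE 0.23, adjusted p = 0.00488, edgeR). In diestrus it was 2.61-fold lower, a log2FC of -1.38 (SE 0.18, adjusted p = 0.000476). The interaction was -0.0013 (SE 0.22, adjusted p = 1.00). In every fit that left out 1 library the call held, at -1.55 to -1.19 in estrus and -1.55 to -1.29 in diestrus. Hpgd was the 1 gene of the 9 without overlap between the lines in estrus, where 4.89% of all genes had none. In diestrus Hpgd, Ptges and Ptger4 had none, 3 of 9, and 5.45% of all genes.

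Hpgd was also lower in estrus than in diestrus by the same size in both lines, a log2FC of -0.54, which was not called (adjusted p = 0.164 in ctrl and 0.0984 in FL1). Of 10 fits that left out 1 library, only 1 called it in each line. In ctrl this was the fit without estrus replicate 3, the highest of its group, at -0.74 (adjusted p = 0.0398, edgeR). In FL1 it was the fit without estrus replicate 1, also the highest of its group, at -0.70 (adjusted p = 0.032). The weakest values were -0.46 in ctrl and -0.38 in FL1, and the adjusted p reached 0.339 and 0.267. The gene most like Hpgd was Atp10d, at r = 0.909 over the 20 libraries and 0.327 with group means removed, so most of this likeness lay in the group means. Of the 2 other tested genes within 1 Mb of Hpgd, 0 were called between the lines by edgeR, DESeq2 or limma-voom in either stage, and 0 had an unadjusted p under 0.05. Around Ptges, 0 of 38 tested neighbours within 1 Mb were called in estrus by the 3 tools (5 had an unadjusted p under 0.05 in edgeR), and by edgeR Fnbp1 and Lamc3 were higher in FL1 among 37 in diestrus. There DESeq2 called 2 and limma-voom 1, and 8 had an unadjusted p under 0.05 in edgeR. Beside these counts, and those of the markers below, edgeR called 2.33% of all genes in estrus and 4.11% in diestrus. Among the markers of cell types, the line comparisons called the genes named next and no others (edgeR). Of 7 myeloid genes, Lyz2 was higher in FL1 by 1.10 in estrus and 1.31 in diestrus, Cd68 was higher by 0.79 in diestrus and Cx3cr1 was lower by -0.85 in estrus. The 7 summed to 231 to 366 CPM in ctrl and 286 to 529 in FL1 in estrus, and to 168 to 314 in ctrl and 218 to 521 in FL1 in diestrus, with none at 0. Of the 6 luteal genes, Lhcgr was higher in FL1 in diestrus by 1.43, and of 5 surface epithelium genes Upk3b was higher by 0.69 in estrus and Upk1b was lower by -2.33 in diestrus. Of 8 granulosa genes (7 tested), Foxl2 was higher in FL1 in diestrus by 0.53. In the qPCR that the study ran on diestrus ovaries, Lhcgr was also higher in FL1 and Foxl2 was not. The part of all these marked cells in the Hpgd and Ptges differences was not tested.

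The level of Ptges relative to Hpgd, a synthase against the inactivating enzyme, was worked out after these values were seen and is given as a description. In estrus the ratio of CPM was 3.33, 2.82, 2.10, 2.90 and 2.70 in ctrl and 6.27, 8.65, 11.4, 5.78 and 8.52 in FL1. In diestrus it was 1.85, 2.92, 2.44, 1.69 and 1.79 in ctrl and 8.01, 10.1, 9.42, 9.35 and 7.27 in FL1. The lowest FL1 ratio, 5.78, lay above the highest ctrl ratio, 3.33, in spite of the overlap of Ptges between the lines in estrus.

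**Figure D4:**
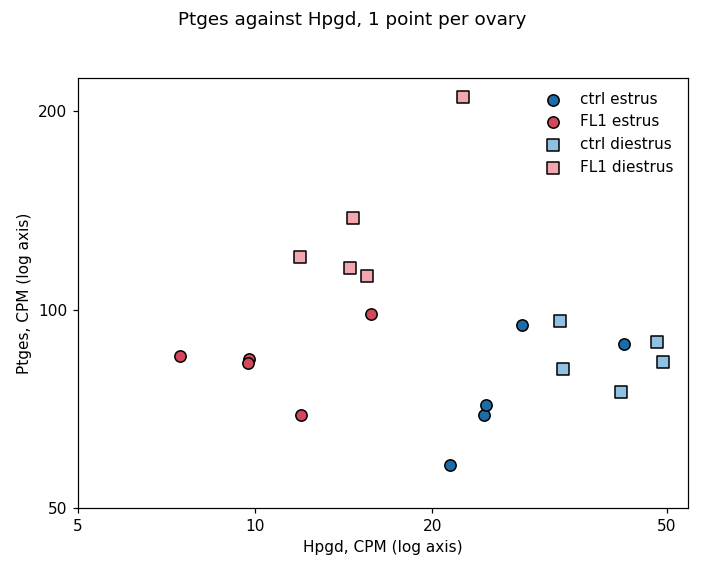
CPM of Ptges (vertical log axis) against CPM of Hpgd (horizontal log axis), 1 point per ovary, with circles for estrus and squares for diestrus. The FL1 points lie to the left, at 7.44 to 22.5 CPM of Hpgd, and the FL1 diestrus points lie above the rest, at 113 to 210 CPM of Ptges.

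Ptgr1, which reduces the keto forms further (chr4:58965439-58987119, minus strand), had a small stage difference in FL1. Its libraries had 56.4 to 66.5 CPM in estrus and 44.1 to 51.8 in diestrus, without overlap, and the log2FC was 0.30 (SE 0.09, adjusted p = 0.0281, edgeR). The call was lost in 1 fit of all 20 libraries (adjusted p = 0.0864), without a filter on low counts (adjusted p = 0.0927), and without FL1 estrus replicate 2 or 3 or FL1 diestrus replicate 2. In ctrl the ranges of 41.4 to 60.3 CPM and 40.0 to 56.8 CPM overlapped, with a log2FC of 0.06 (SE 0.14, adjusted p = 0.889). Between the lines the log2FC was 0.28 in estrus (adjusted p = 0.249) and 0.05 in diestrus (adjusted p = 0.866). In FL1, 6 of the 9 genes had no overlap between the stages (Ptgs1, Ptges, Ptgis, Ptgfr, Ptger2 and Ptgr1), beside 12.2% of all genes.

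Markers of several cell types were called between the stages in FL1, beside 7.42% of all genes higher in estrus and 8.49% lower. Of 7 myeloid genes and of 3 tested fat genes, 0 were called. All 5 surface epithelium genes were higher in estrus, with a sum of 102 to 187 CPM against 52.4 to 79.6 in diestrus. Of 5 smooth muscle genes, 3 were higher, with a sum of 1171 to 1535 CPM against 820 to 1348. Of 4 endothelium genes 3 were lower, with sums that did not overlap (median 221 CPM in estrus and 371 in diestrus). All 3 tested genes of the theca list were lower, with a sum of 8578 to 13852 CPM against 18106 to 22552 and Insl3 at 0 in all FL1 libraries. That sum follows Cyp11a1 and Hsd3b1, with means of 11876 and 7796 CPM in FL1 in diestrus, beside 196 for Cyp17a1. Of 8 granulosa genes 7 were tested and 3 were lower (2376 to 3726 CPM against 2571 to 3925 for the 8). Of 3 blood genes 3 were lower (744 to 1397 CPM against 992 to 2687), and of 5 oocyte genes Bmp15 was higher (139 to 347 CPM against 118 to 185). In ctrl, where Ptgs1 was called and 2.85% of all genes were, 1 luteal gene was lower in estrus and 1 higher. There 1 granulosa gene (Inhba) and 1 theca gene (Cyp17a1) were lower, and 2 smooth muscle genes and 1 myeloid gene (Cd68) were higher. With group means removed, the surface epithelium gene Upk3b had r = 0.57 with Ptgs1, 0.083 with Ptgis and -0.512 with Ptger2. The smooth muscle gene Acta2 had -0.18, 0.507 and 0.136 in the same order, also over 20 libraries. Pla2g4a and Ptgr1, also called higher in estrus in FL1, had 0.111 and 0.151 with Upk3b and 0.059 and 0.408 with Acta2. Of the same 2 lists, Krt19 had 0.445 with Ptgs1, 0.316 with Ptgis, -0.627 with Ptger2, 0.058 with Pla2g4a and 0.094 with Ptgr1. Myh11 had -0.247, 0.355, 0.083, -0.052 and 0.529 in that order, also with group means removed. Not every marker of these lists was correlated. The part of these cells in the stage differences was not tested.

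Of 25 further prostaglandin genes, 18 were tested in estrus and 17 in diestrus, and 0 were called between the lines by edgeR in either, beside 2.33% and 4.11% of all genes. An unadjusted p under 0.05 was found for 2 in estrus (Akr1b7, with a log2FC of 1.33, and Zadh2) and 1 in diestrus (Tbxa2r, with 0.84). Limma-voom called 0, and DESeq2 called Zadh2 in estrus and Ptger3 in diestrus. Ptger3 did not pass the filter of edgeR and limma-voom in diestrus. Ptges3, a synthase of prostaglandin E2 that is also a cochaperone, had means of 135 to 143 CPM in the 4 groups, Ptges2 had 26.8 to 28.1 and the uptake carrier Slco2a1 had 67.5 to 72.9. Ptgfrn, a membrane protein that associates with the prostaglandin F2 alpha receptor, was higher in estrus in both lines, by 0.56 in ctrl (adjusted p = 0.0345, edgeR) and 0.50 in FL1 (adjusted p = 0.000938). It was the 1 gene of 19 that edgeR called in ctrl, beside 2.85% of all genes. For FL1 the share of all genes called was 15.9%, with 8.49% lower in estrus. In FL1, 4 others of 17 were lower in estrus by edgeR: the secreted phospholipase Pla2g5 by -1.86, the thromboxane receptor Tbxa2r by -1.23, Prxl2b, a prostamide and prostaglandin F synthase, by -1.03, and the prostaglandin D synthase Ptgds by -0.79. The log2FC in ctrl was -1.96 for Pla2g5 (adjusted p = 0.057, edgeR), -0.52 for Tbxa2r, -0.61 for Prxl2b and -0.64 for Ptgds, with no call. Pla2g5 had a mean of 64.5 ± 13.6 CPM (SD, n = 5) in FL1 in diestrus and 17.8 ± 3.56 in estrus, and 64.3 ± 40.0 in ctrl in diestrus and 16.5 ± 8.47 in estrus. In ctrl, DESeq2 called Pla2g5 and Zadh2 besides Ptgfrn. In FL1, limma-voom did not call Ptgds, and DESeq2 called Akr1b7 as well. In the interaction, where 20 were tested, edgeR, DESeq2 and limma-voom called 0, and 3 had an unadjusted p under 0.05 in edgeR. Of 8 leukotriene and lipoxygenase genes, 4 were tested in each comparison. Alox12 was the 1 of 4 called in FL1, lower in estrus by -0.85 (adjusted p = 0.0363, edgeR), beside 8.49% of all genes lower. No other gene of this list was called by edgeR, DESeq2 or limma-voom in any comparison.

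Of 12 genes that are known to rise with ovulation, edgeR tested 10 between the lines in estrus and 8 in diestrus. There 0 were called by edgeR, DESeq2 or limma-voom in either stage. By edgeR, 2.33% of all genes were called in estrus and 4.11% in diestrus. An unadjusted p under 0.05 in edgeR was found for 1 in each stage (Cebpb in estrus, Pgr in diestrus). The protease gene Adamts1 was higher in estrus by 1.75 in ctrl and 2.28 in FL1, as the 1 gene of 9 tested that edgeR called in ctrl. In FL1 the other edgeR calls of 9 tested were Edn2, which encodes an endothelin, by 2.23, Tnfaip6, which crosslinks the cumulus matrix, by 1.55, and the transcription factor gene Runx1 by 1.12, beside 15.9% of all genes. In ctrl these 3 had a log2FC of 0.93, 1.67 and 0.91 with no call, and 2.85% of all genes were called. DESeq2 called Ereg besides Adamts1 in ctrl and did not call Edn2 in FL1, and limma-voom called the same genes as edgeR in both. Ereg did not pass the filter of edgeR and limma-voom in ctrl.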

How the data were processed

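Libraries of 20 mouse ovaries were made with a QuantSeq kit that reads the 3' end of mRNA, 1 library per animal, so replicates are separate animals. Reads were trimmed and mapped to GRCm38 with STAR by the authors, who deposited raw counts of uniquely assigned reads per Ensembl gene, without normalization, filtering or pooling. The counting tool and its strand setting are not given in the sources used here, nor are molecular identifiers. The labels name Cuffdiff among the processing tools, and the methods of the study do not. Groups were taken from the titles and stages in the labels. The source name in the labels names FL1 for every library, ctrl included, so the line of each library rests on its title.

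The genes, lists, markers and tests were chosen with earlier results of these data known. Symbols and positions came from GENCODE M21 (GRCm38), which holds 54809 of the 54838 genes, and Prxl2b was matched to Fam213b by its RefSeq synonym. No one of the 10 genes shared 50 or more 31-nt words of its last 300 transcript bases with another gene. Within groups, the 40 pairs of libraries differed by a chi-square of 6.32 to 46.6 per gene, so none was a copy.

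Each comparison was tested on all genes with edgeR 4.0.16 in R 4.3.3 (glmQLFit and glmQLFTest, TMM, filterByExpr with a minimum count of 10) on the 10 libraries of its groups, and the line-by-stage interaction on all 20. The Benjamini-Hochberg adjustment ran over all genes tested, and an adjusted p of at most 0.05 is a call. Standard errors were derived as the size of log2FC over the root of the F statistic. Log2 CPM used a prior count of 2. The test was checked on simulated counts. Correlations are Pearson's r of log2 CPM over 20 libraries, without p. Shares of reads have exact 95% binomial (Clopper-Pearson) intervals, which cover counting error only.

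All 10 genes are named, a gene of another list if it was called, and for likeness the genes with the highest r; genes named beyond this are those behind counts of 5 or fewer and levels given as examples, chosen after their values were seen. Alternatives were DESeq2 1.42.0, limma-voom (limma 3.58.1), DESeq2's size factors in edgeR, a block for the replicate number, a single fit of the 20 libraries, fits that leave out 1 library, no filter beyond 1 count, and a filter at 10 counts in every library. Promoter windows are RefSeq's (GRCm38.p6). Python 3.11.15, pandas 2.3.3, scipy 1.17.1 and matplotlib 3.10.9 were used.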

Additional observations from a re-analysis of the deposited data

Results flagged for a closer look

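In 3 of 40 groups of 5 libraries (10 genes in 4 groups), 1 library lay far from the other 4, with a gap above Dixon's 95% critical value, and chance alone flags about 1 in 20 groups. Ptges in FL1 in diestrus had 210 CPM in replicate 4, against 113 to 138 CPM in the others. Ptgis in ctrl in diestrus had 80.2 CPM in replicate 1, against 45.2 to 51.3. Ptger4 in ctrl in diestrus had 22.9 CPM in replicate 5, against 11.4 to 14.0. The 3 values came from 3 different libraries. Without these libraries the log2FC of FL1 against ctrl in diestrus was 0.51 (adjusted p = 0.0139, edgeR) for Ptges, 0.17 (adjusted p = 0.364) for Ptgis and -0.42 (adjusted p = 0.222) for Ptger4.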

How the results depend on the processing

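The calls of Hpgd in both line comparisons, of Ptges in diestrus and of Ptgs1 in both lines held in all 7 other settings and in every fit without 1 library. The members called between the lines stayed at 1 in estrus and 2 in diestrus throughout. In ctrl, estrus against diestrus gave 2 called members in 1 fit of all 20 libraries (Ptgs1 and Ptger2), and without 1 library 1 to 2. In FL1 the count was 5 to 8 without 1 library, and in the interaction 0 to 0. The number of all genes called moved more: in estrus 311 became 670 (DESeq2), 477 (no filter) and 531 (all 20 libraries), in diestrus 545 became 892 (DESeq2) and 846 (no filter), in ctrl 380 became 768 (DESeq2) and 909 (all 20 libraries), and in the interaction 8 became 152 (DESeq2), 3 (limma-voom) and 17 (no filter). Without 1 library these counts were 175 to 418, 349 to 594, 176 to 516 and 0 to 15, and in FL1 1582 to 2316. Signs turned only for values without a call. Without 1 library, FL1 against ctrl in diestrus was -0.0743 to 0.17 for Ptgis, -0.0152 to 0.21 for Pla2g4a and -0.0044 to 0.13 for Ptgr1, and estrus against diestrus in ctrl was -0.0229 to 0.14 for Ptgr1. The interaction was then -0.1665 to 0.19 for Hpgd, -0.1178 to 0.0969 for Ptger2, -0.1936 to 0.11 for Ptger4, -0.2546 to 0.13 for Ptgs1, -0.4604 to 0.0332 for Ptgfr and -0.0927 to 0.15 for Ptgis. It was -0.0023 (DESeq2) and -0.0903 (limma-voom) for Ptger4, and 0.0003 for Ptger2 and 0.0111 for Hpgd with at least 10 counts in every library. The cause of these changes was not tested. Counting error is widest for Ptgs2, with 1 to 21 counts per library, then for Ptgs1 in diestrus (from 20 counts) and Ptger4 in estrus (from 42 counts).

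The replicate numbers only name the libraries. The deviations of same-numbered libraries from their group means had r of -0.095 to 0.126. In 6 of 20 same-numbered pairs, the first library correlated best with its own number among the 5 of the other group. With the replicate number as a block, the called members stayed at 1, 2, 1, 7 and 0 over the 5 tests. The block turned the sign of Ptgis between the lines in diestrus (0.0231) and of the Ptger4 interaction (-0.0015), neither called.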

Other observations

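Some genes of other functions followed single members across the 20 libraries, given as Pearson's r of log2 CPM with no test, since the libraries share line, stage and depth. Pla2g4a was most like the chemokine gene Ccl9, at r = 0.878 and at 0.813 with group means removed, and of 2 myeloid genes it had r = 0.656 with Lyz2 (0.665 with group means removed) and -0.233 with Csf1r (0.036 with group means removed). Ptges was most like Daam1, a formin-type regulator of the cytoskeleton, at 0.862 and 0.838. Ptgis was most like Aprt, an enzyme of purine salvage, at 0.892 and 0.796. Ptgs1 was most like Kctd17, at 0.903, and at 0.502 with group means removed. Ptgr1 had the weakest best match, Mrpl34, at 0.78.

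Thromboxane and prostacyclin receptors were low. Tbxa2r had a mean of 10.8 ± 1.17 CPM (SD, n = 5) in FL1 in diestrus and 4.57 ± 0.733 in FL1 in estrus, and Ptgir had 0.984 to 1.52 CPM in the 4 group means. Ptger3, another receptor of prostaglandin E2, had 2.82 ± 1.21 CPM in ctrl in diestrus and 0.856 ± 0.421 in FL1 in diestrus. DESeq2 called Ptger3 between them, and edgeR and limma-voom did not test it there, since it did not pass their filter on low counts. Akr1b7, an aldose reductase family gene with prostaglandin F synthase activity, had 7.04 ± 3.89 CPM in FL1 in estrus and 2.78 ± 1.33 in ctrl in estrus, with no call between them by edgeR, DESeq2 or limma-voom. Its means in diestrus were 0.622 ± 0.375 CPM in FL1 and 0.893 ± 0.681 in ctrl. DESeq2 called it between the stages in FL1, and edgeR did not test it there.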
